A study of Mus musculus with 29 samples.

Results

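The comparison is between livers of calorie-restricted mice fed lard and livers of calorie-restricted mice fed soybean oil. The 8 libraries were chosen by their diet label, 4 lard and 4 soy, out of 29 in the series. Each library is the liver RNA of 1 male C57BL/6 mouse, an inbred laboratory strain, purchased when 14 weeks old and started on its diet when 4 months old. The lard mice (numbers 1100, 1101, 1102 and 1130) and the soy mice (numbers 1065, 1073, 1141 and 1159) were all restricted to 60% of ad libitum feeding, or 8.6 kcal a day, so that only the fat source differs by label. Livers of 4 mice restricted to the same 60% with fish oil, and of 3 control mice held at 95% of ad libitum feeding (13.6 kcal a day), entered the same fit and are given as side values only.

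Lard is rich in saturated and monounsaturated fatty acids, and soybean oil is rich in the polyunsaturated linoleic acid. In liver, polyunsaturated fatty acids are known to hold down SREBP1, the transcription factor that drives genes of fatty acid synthesis and desaturation. SREBP2, its relative, drives cholesterol synthesis when sterols are low. Desaturases of the Fads family make long polyunsaturated fatty acids from linoleic and linolenic acid, and their genes are known to respond to the supply of those products.

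Levels are reads on exons in counts per 1e6 reads after TMM scaling of the libraries (CPM), and fold changes are log2, lard minus soy, with their standard error (SE) from the edgeR fit of all 15 livers. Values per liver are listed in the order of the mouse numbers above. The libraries held 11315231 to 21278699 exon reads, and no pair within a diet agreed within sampling noise. The tissue label fits the markers: the 10 hepatocyte markers measured summed to 138000 to 164000 CPM in lard livers and 146000 to 184000 CPM in soy livers. Soy livers 1073 and 1159 stood apart from every other liver. Along the first principal component, which held 30.3% of the variance over the 15 livers, they lay at 69 and 54.5, and the other 13 at -18.2 to -2.01. Reads outside exons made up 7.90 to 8.84% of gene reads in lard livers, and in soy livers 5.47 and 5.41% in mice 1073 and 1159 against 8.14 and 8.43% in mice 1065 and 1141. Between the diets this percentage differed by 1.42 points (mean 8.29% in lard and 6.86% in soy; exact permutation test, two-sided p = 0.229, smallest possible 0.0286). Fold changes and list medians are therefore given with all 4 soy livers and, in parentheses or beside them, without those of mice 1073 and 1159, where 4 lard livers face 2 soy livers.

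Lipid synthesis genes had positive median fold changes as groups, and heat shock chaperones a negative one, but no single gene passed the edgeR test. The summed levels of these groups overlapped between the diets. Of 12788 genes tested, 0 (0%) had an adjusted p under 0.05, and the smallest adjusted p was 0.229 (edgeR quasi-likelihood test, Benjamini-Hochberg). At an unadjusted p under 0.05 there were 2212 genes (17.3%), of which 777 were higher (6.08% of genes tested) and 1435 lower (11.2%) in lard. The livers of the diets did not overlap for 278 genes higher in lard (2.17%) and 278 lower (2.17%). Counts of list members below are to be read beside these shares. DESeq2's Wald test called 151 genes (1.18%), 30 higher (0.235%) and 121 lower (0.946%); it gave an adjusted p to 1629 genes only, and limma-voom called 0. The edgeR count rested on single livers: it was 780 genes without soy liver 1065 (198 higher and 582 lower) and 524 without soy liver 1141 (92 higher and 432 lower). Ribosomal protein genes made up 61 of the 780 and 64 of the 524. Without soy livers 1073 and 1159 edgeR called 0 of 12900 genes (0%), with 808 (6.26%) at an unadjusted p under 0.05, 400 higher (3.1%) and 408 lower (3.16%). DESeq2 called 2 (0.0155%), to which it gave no adjusted p with all soy livers, so they could not be among the 151. These were 1810055G02Rik, a gene with no role given here, at 53.7, 65.7, 58.6 and 54.6 CPM in lard livers, against 30.8, 43.6, 28.8 and 40.2 CPM in soy livers, and ENSMUSG00000001379, which has no symbol in the annotation used; both were named after their values were seen. The authors' deposited table gives 13554 genes a p-value, of which 880 are under 0.05 unadjusted, 379 with lard above soy and 501 with lard below.

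Genes of cholesterol synthesis and other SREBP2 targets mostly had positive fold changes. Their summed level was 4431 to 5098 CPM in lard livers. In soy livers it was 5157 CPM in mouse 1073, above every lard liver, and 3432, 3370 and 3275 CPM in mice 1065, 1141 and 1159. Of 26 members tested, 24 had a positive and 2 a negative fold change, with a median of 0.36 against -0.002 over all genes tested. At an unadjusted p under 0.05 there were 7 higher and 0 lower, against 6.08% and 11.2% over all genes tested. The livers did not overlap for 3, all higher in lard, against 2.17% over all genes tested. Without soy livers 1073 and 1159 the median was 0.58, with 25 of 26 positive and 8 higher at an unadjusted p under 0.05 (3.1% over all genes). No member passed the edgeR adjustment in either fit.

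Promoter sequences of the pathway are shown because 24 of its 26 members lay on the same side of 0. They come from RefSeq (GRCm38.p6), 250 bases before to 50 bases after the gene start, and 18 of the 26 members matched. Both strands were searched for the sterol regulatory element TCACNCCAC, the E-box CACGTG and the CCAAT box, and matches are in capitals. The windows are those of Hsd17b7 (chr1:169969156-169969455, minus strand) and Ggps1 (chr13:14063439-14063738, minus strand), whose livers did not overlap between the diets, and of Hmgcs1 (chr13:119690101-119690400, plus strand).
Hsd17b7: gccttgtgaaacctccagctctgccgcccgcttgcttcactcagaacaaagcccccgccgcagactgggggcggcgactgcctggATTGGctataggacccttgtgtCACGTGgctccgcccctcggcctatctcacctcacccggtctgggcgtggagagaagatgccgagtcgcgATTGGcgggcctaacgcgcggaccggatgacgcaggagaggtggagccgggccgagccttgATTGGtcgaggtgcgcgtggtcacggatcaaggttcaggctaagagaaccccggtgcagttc
Ggps1: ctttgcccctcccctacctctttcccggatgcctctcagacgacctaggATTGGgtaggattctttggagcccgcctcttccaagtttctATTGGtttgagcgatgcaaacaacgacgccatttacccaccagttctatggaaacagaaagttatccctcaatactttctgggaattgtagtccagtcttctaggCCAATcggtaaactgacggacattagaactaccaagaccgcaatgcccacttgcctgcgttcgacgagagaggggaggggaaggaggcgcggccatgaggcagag
Hmgcs1: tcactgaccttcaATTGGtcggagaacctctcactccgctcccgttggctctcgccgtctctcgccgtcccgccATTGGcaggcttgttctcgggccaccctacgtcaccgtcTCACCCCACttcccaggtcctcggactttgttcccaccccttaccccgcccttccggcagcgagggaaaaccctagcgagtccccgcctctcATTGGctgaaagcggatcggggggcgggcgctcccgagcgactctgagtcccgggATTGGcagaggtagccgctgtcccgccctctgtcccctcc
The Hsd17b7 window holds 1 E-box, 143 bases before the start, and 3 CCAAT boxes. The Ggps1 window holds 3 CCAAT boxes, and the Hmgcs1 window holds 4 and the element TCACCCCAC, 137 bases before the start. A CCAAT box was found in 16 of the 18 members' windows (88.9%), against 37.4% of all 32851 windows in the table. The E-box was in 3 (16.7%, against 7.15%) and the sterol regulatory element in 1 (5.56%, against 1.24%). The windows of the 8 matched desaturase and elongase genes held a CCAAT box in 3 (37.5%), an E-box in 1 (12.5%) and a sterol regulatory element in 0. Those of the 22 matched fatty acid and triglyceride synthesis genes held them in 11 (50%), 4 (18.2%) and 1 (4.55%). These are matches of letters in a fixed window, with no measurement of binding behind them.

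Hsd17b7 (ENSMUSG00000026675, chromosome 1, 169949535 to 169969241 in GRCm38), which reduces a sterol intermediate late in cholesterol synthesis, had 95.8, 113, 116 and 107 CPM in lard livers, against 70.6, 52.9, 84.3 and 46.1 CPM in soy livers. Every lard liver lay above every soy liver. The fold change was 0.76 ± 0.18 (SE; unadjusted p = 0.000577, edgeR adjusted p = 0.229), and 0.47 ± 0.15 without soy livers 1073 and 1159. In the fits without soy liver 1065 or 1141, in which livers 1073 and 1159 made up 2 of the 3 soy livers left, its edgeR adjusted p was 0.0405 and 0.0472. It was 0.521 without soy liver 1073, 0.628 without soy liver 1159, 0.778 without both, and 0.259 to 0.390 without any other single liver.

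Ggps1, which makes geranylgeranyl diphosphate, had 9.29, 6.86, 7.81 and 7.32 CPM in lard livers, against 6.24, 5.38, 6.71 and 6.06 CPM in soy livers. Its fold change was 0.36 ± 0.13 (0.28 ± 0.14 without soy livers 1073 and 1159), and its exons overlap those of Arid4b on the opposite strand, whose reads cannot be told apart since no source used here gives the strand setting of the counts.

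Several other members, chosen after their values were seen, were split by soy liver 1073. Hmgcs1, which makes HMG-CoA, had 204, 236, 280 and 248 CPM in lard livers, against 145, 258, 137 and 134 CPM in soy livers. The squalene epoxidase Sqle had 69.4, 82.8, 81 and 67.7 CPM in lard livers, against 41.7, 74.9, 34.5 and 28.8 CPM in soy livers. The isomerase Idi1 had 281, 311, 258 and 226 CPM in lard livers, against 134, 254, 135 and 162 CPM in soy livers. In all 3 the lard livers lay above soy livers 1065, 1141 and 1159, and soy liver 1073 fell within the lard range.

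**Figure D1:**
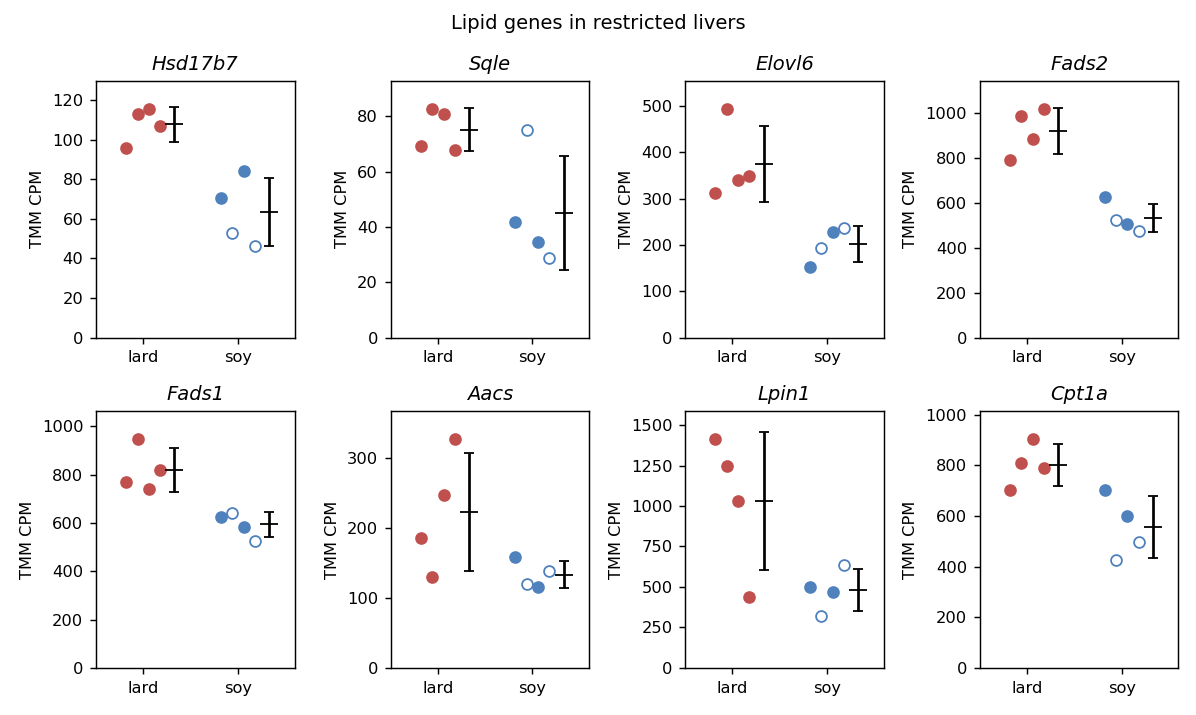
TMM-scaled CPM of 8 lipid genes in each lard and soy liver (points; open points are soy livers 1073 and 1159), with the mean and SD of 4 livers beside them. For Hsd17b7, Elovl6, Fads2, Fads1 and Cpt1a every lard liver lies above every soy liver, while for Sqle, Aacs and Lpin1 the diets overlap.

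All 12 fatty acid desaturase and elongase genes tested had a positive fold change, with a median of 0.42, or 0.37 without soy livers 1073 and 1159. At an unadjusted p under 0.05 there were 6 higher and 0 lower, and 1 and 0 without those livers. Over all genes tested 6.08% were higher and 11.2% lower, and 3.1% and 3.16% without those livers. Elovl6 (ENSMUSG00000041220, chromosome 3, 129532355 to 129638495), which elongates palmitate to stearate, had 312, 494, 339.5 and 349.9 CPM in lard livers, against 152, 193, 228 and 237 CPM in soy livers. The groups did not overlap, and the fold change was 0.88 ± 0.25, or 0.97 ± 0.33 without the pair of soy livers. DESeq2 gave Elovl6 an adjusted p of 0.0434 with all soy livers and of 0.521 without the pair.

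The delta-6 desaturase gene Fads2 (ENSMUSG00000024665, chromosome 19, 10062765 to 10101746) catalyses the first step from linoleic acid to arachidonic acid. It had 793, 988, 885 and 1020 CPM in lard livers, against 625, 523, 506 and 476 CPM in soy livers. No soy liver reached a lard liver, and the fold change was 0.79 ± 0.25, or 0.70 ± 0.33 without soy livers 1073 and 1159 (DESeq2 adjusted p = 0.0491 with all soy livers). Fads1, the delta-5 desaturase next to it in that pathway and chosen after its values were seen, had 771, 949, 742 and 819 CPM in lard livers, against 626, 642, 583 and 527 CPM in soy livers. These groups did not overlap either, at a fold change of 0.46 ± 0.19 (0.44 ± 0.23 without the pair). Fads6, a less studied family member, was at 0.37 ± 0.14 with overlapping livers, and at 0.17 ± 0.13 without the pair. Scd1, the stearoyl-CoA desaturase that makes oleate and also chosen after its values were seen, had 7617, 13313, 17358 and 9981 CPM in lard livers, against 10572, 3544, 13101 and 10092 CPM in soy livers. Its groups overlapped widely, and its fold change of 0.37 ± 0.39 came to 0.02 ± 0.39 without soy livers 1073 and 1159.

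Fatty acid and triglyceride synthesis genes had a median fold change of 0.41 over 27 members tested, 18 positive and 9 negative, with 9 higher and 1 lower at an unadjusted p under 0.05. Without soy livers 1073 and 1159 the median was 0.28, with 22 positive, 7 higher and 0 lower. The shares over all genes tested were 6.08% higher and 11.2% lower, and 3.1% and 3.16% without those livers. DESeq2 called 5 members higher and 0 lower with all soy livers: Elovl6, Aacs, Lpin2, Lpin1 and Acacb. Aacs, which makes acetoacetyl-CoA for lipid synthesis from ketone bodies, had 186, 130.1, 247 and 327 CPM in lard livers, against 158, 119.7, 116 and 139 CPM in soy livers. Lard liver 1101 lay within the soy range, and the fold change was 0.74 ± 0.23 (0.70 ± 0.29 without the pair of soy livers).

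Lpin1, a phosphatidate phosphatase and coactivator, had 1416, 1248, 1030 and 438 CPM in lard livers, against 502, 322, 468 and 634 CPM in soy livers. In 3 lard livers it lay above every soy liver and in lard liver 1130 below 3 of them, at a fold change of 1.10 ± 0.34 (1.09 ± 0.43 without the pair). Lpin2, its relative, was at 0.50 ± 0.15 and at 0.28 ± 0.14 without the pair, and only 26.4% of its reads were unique, so its level is uncertain. Acacb, the acetyl-CoA carboxylase whose product restrains Cpt1a, had 202, 276, 144 and 263 CPM in lard livers, against 103, 134, 163 and 112 CPM in soy livers. Lpin1 and Acacb were named after their values were seen. The fatty acid synthase gene Fasn, likewise, had 771, 1472, 496 and 1791 CPM in lard livers, against 339, 882, 994 and 317 CPM in soy livers, with overlap and a fold change of 0.84 ± 0.41 (0.76 ± 0.49 without the pair).

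Genes of fatty acid oxidation and other PPARalpha targets did not share that direction. Of 43 members tested 11 had a positive and 32 a negative fold change, with a median of -0.17, or -0.004 without soy livers 1073 and 1159. At an unadjusted p under 0.05, 2 were higher and 3 lower, against 6.08% and 11.2% over all genes tested. Cpt1a, which carries long-chain fatty acids into mitochondria, was the member of smallest p. It had 702, 809.6, 905 and 789 CPM in lard livers, against 701, 424, 601 and 496 CPM in soy livers. The groups did not overlap, although soy liver 1065 came within 1 CPM of lard liver 1100, and the fold change was 0.53 ± 0.15 (0.30 ± 0.13 without the pair; DESeq2 adjusted p = 0.0434 with all soy livers). Ppargc1a, the coactivator of oxidative metabolism, was at 0.74 ± 0.27 (0.40 ± 0.29 without the pair) and the dehydrogenase Acadvl at -0.37 ± 0.14 (-0.06 ± 0.08). Both overlapped between the diets.

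Sterol export and bile acid genes showed little common direction. The LXR target list had a median of 0.09 over 16 members, or 0.06 without soy livers 1073 and 1159. At an unadjusted p under 0.05, 3 were higher and 1 lower, against 6.08% and 11.2% over all genes tested. Abcg8, a subunit of the biliary cholesterol exporter, was at 0.50 ± 0.18 (0.37 ± 0.19 without the pair), the cholesterol efflux gene Abca1 at 0.66 ± 0.28 (0.14 ± 0.18) and Soat2, which esterifies cholesterol, at -0.31 ± 0.13 (-0.23 ± 0.14). All 3 overlapped between the diets, and the exons of Abcg8 overlap those of Abcg5 on the opposite strand. The bile acid list had a median of -0.04 over 17 members (0.03 without the pair), and 0 members were at an unadjusted p under 0.05. Its uptake carrier Slc10a1 had 1298, 1200.5, 1328 and 1476 CPM in lard livers, against 1023, 1056, 1136 and 1182 CPM in soy livers. Each lard liver lay above each soy liver, at a fold change of 0.27 ± 0.13 (unadjusted p = 0.0554), or 0.29 ± 0.15 without the pair. The lipid droplet list had a median of -0.07 over 20 members, or 0.03 without the pair.

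**Figure D2:**
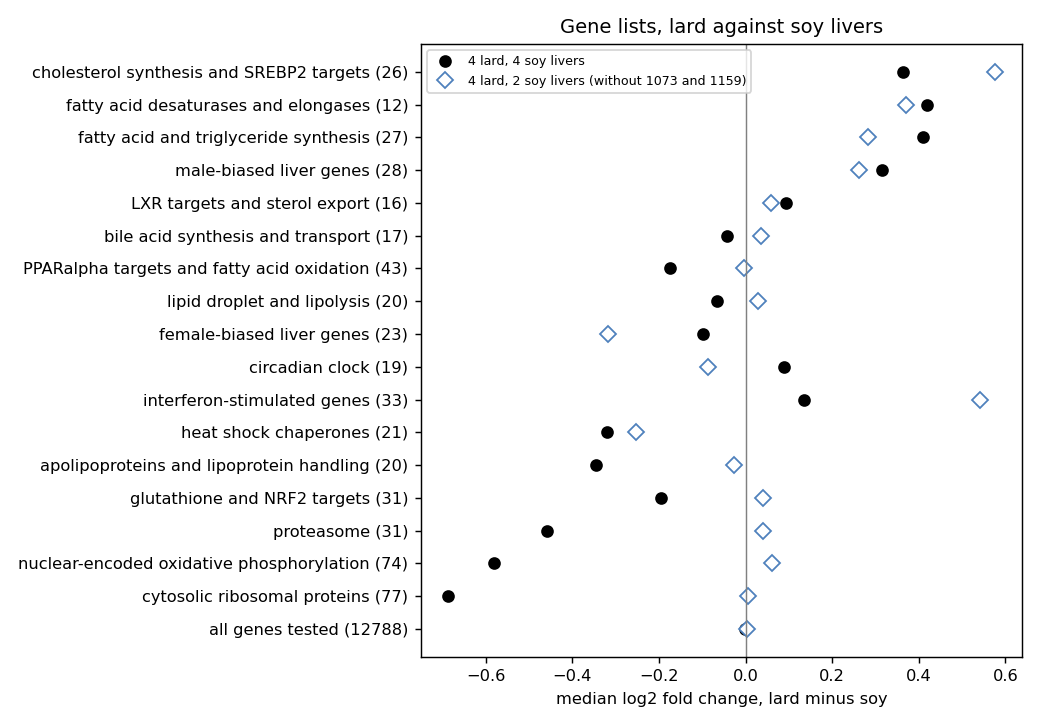
Median log2 fold change, lard minus soy, of 17 gene lists and of all genes tested (number of genes tested in parentheses), with all 4 soy livers (filled) and without soy livers 1073 and 1159 (open). The lipid synthesis lists lie between 0.28 and 0.58 in both, the ribosomal, oxidative phosphorylation and proteasome lists move to within 0.06 of 0, and interferon-stimulated genes move to 0.54.

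Most genes of smallest p among those without overlap were not members of the lipid lists. Atoh8 (ENSMUSG00000037621, chromosome 6, 72206177 to 72235577), a basic helix-loop-helix transcription factor that takes part in hepcidin control in liver, had 9.73, 11.5, 9.09 and 7.22 CPM in lard livers, against 13.6, 21.8, 23.1 and 17.0 CPM in soy livers. The groups did not overlap, and the pair of soy livers that stood apart lay between the other soy livers. The fold change was -1.0 ± 0.18 (unadjusted p = 3.88e-05, the smallest of the named genes; edgeR adjusted p = 0.229), and -0.96 ± 0.20 without soy livers 1073 and 1159. Again in the fits without soy liver 1065 or 1141, in which livers 1073 and 1159 made up 2 of the 3 soy livers left, its edgeR adjusted p was 0.0399 and 0.0472. It was 0.521 without soy liver 1073, 0.628 without soy liver 1159, 0.778 without both, and 0.259 to 0.390 without any other single liver. Control livers held 14.5 to 17.7 CPM and fish oil livers 10.1 to 13.7 CPM.

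Other named genes lower in lard livers, with no overlap between the diets, were Ung, Cldn3, Deaf1, Bcl7c, Rhod, C1galt1c1, Hist1h2bc, Nr2f6 and 1110008P14Rik. Ung, the uracil-DNA glycosylase of base excision repair, had 5.16, 6.44, 5.47 and 4.15 CPM in lard livers, against 9.73, 9.44, 8.35 and 13 CPM in soy livers. Its lard livers all lay below its soy livers, at a fold change of -0.93 ± 0.19 (-0.77 ± 0.21 without the pair). Cldn3, a tight junction protein, had 29.4, 38.1, 38.7 and 30.1 CPM in lard livers, against 49.4, 79.8, 44.1 and 65.5 CPM in soy livers. Here soy livers 1073 and 1159 were the highest, and the fold change was -0.81 ± 0.17, or -0.46 ± 0.13 without them; its exons overlap those of Wbscr25 on the opposite strand.

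The transcription factor Deaf1 was at -0.65 ± 0.14 (-0.39 ± 0.12 without the pair), the chromatin remodelling subunit Bcl7c at -0.93 ± 0.21 (-0.45 ± 0.17) and the small GTPase Rhod at -0.72 ± 0.17 (-0.48 ± 0.17). C1galt1c1, the chaperone of an O-glycosylation enzyme, was at -0.48 ± 0.11 (-0.41 ± 0.12). Less certain were the histone gene Hist1h2bc, at -0.67 ± 0.16 (-0.35 ± 0.13) with 64.9% unique reads, and the nuclear receptor Nr2f6, at -0.70 ± 0.14 (-0.54 ± 0.15) with 38.6%. The same holds for 1110008P14Rik, at -1.11 ± 0.22 (-0.72 ± 0.21) with 57.2% unique reads and exons that overlap Ciz1.

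Higher in lard livers without overlap were Nsun3, Aqp4, Jade2, Acer2, Srp72, Fmn1, Rai1, Cep85 and Tgfbr2, besides Hsd17b7. Nsun3, which methylates a mitochondrial transfer RNA, had 11.8, 11.6, 10.9 and 13.8 CPM in lard livers, against 8.76, 8.89, 7.68 and 6.21 CPM in soy livers. All lard livers exceeded all soy livers, at a fold change of 0.61 ± 0.13 (0.54 ± 0.13 without soy livers 1073 and 1159). The water channel gene Aqp4 had 9.44, 9.80, 12.9 and 20.0 CPM in lard livers, against 7.26, 4.17, 5.82 and 4.14 CPM in soy livers. Its fold change was 1.27 ± 0.29 (0.97 ± 0.34 without the pair), and control livers lay at 17.3 to 27.8 CPM and fish oil livers at 2.68 to 5.66 CPM.

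Fmn1, an actin-nucleating formin, was at 1.25 ± 0.30 (1.10 ± 0.34 without the pair), with 14.8 to 24.0 CPM in lard livers and 4.64 to 9.92 CPM in soy livers. Jade2, a subunit of a histone acetyltransferase complex, was at 0.65 ± 0.15 (0.65 ± 0.18) and the ceramidase Acer2 at 0.60 ± 0.14 (0.42 ± 0.14). Srp72, a subunit of the signal recognition particle, was at 0.46 ± 0.11 (0.33 ± 0.10), with a DESeq2 adjusted p of 0.021 with all soy livers and 0.619 without the pair. The centrosomal gene Cep85 was at 0.47 ± 0.11 (0.38 ± 0.09) and the TGF-beta receptor Tgfbr2 at 0.48 ± 0.12 (0.40 ± 0.12). Rai1 was at 0.66 ± 0.16 (0.37 ± 0.13), and its exons overlap those of Srebf1 on the opposite strand.

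Heat shock chaperones mostly had negative fold changes with or without the soy livers that stood apart. Their summed level overlapped between the diets, at 3371, 3507, 3263 and 2505 CPM in lard livers, against 3679, 3351, 3539 and 4759 CPM in soy livers. Of 21 members tested 1 had a positive and 20 a negative fold change, with a median of -0.32. At an unadjusted p under 0.05, 0 were higher and 6 lower, against 6.08% and 11.2% over all genes tested. The livers did not overlap for 3, all lower in lard, against 2.17% over all genes tested. Without soy livers 1073 and 1159 the median was -0.25, with 18 of 21 negative and 5 lower at an unadjusted p under 0.05 (3.16% over all genes). Fkbp4, a co-chaperone of HSP90, had 111, 122, 114 and 96.1 CPM in lard livers, against 123, 157, 129.8 and 194 CPM in soy livers. The groups met without overlapping, and the fold change was -0.44 ± 0.13 (-0.19 ± 0.10 without the pair; DESeq2 adjusted p = 0.0434 with all soy livers).

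The other members without overlap, chosen after their values were seen, were Hsp90ab1 and Hspa4. Hsp90ab1, the constitutive cytosolic HSP90, had 569, 618, 633 and 510.1 CPM in lard livers, against 749, 645, 691 and 771 CPM in soy livers. Its fold change was -0.29 ± 0.13 and -0.31 ± 0.14 without the pair. Hspa4, an exchange factor of HSP70, was at -0.13 ± 0.09 (-0.14 ± 0.09). The small heat shock protein gene Hspb1 had 6.14, 7.28, 4.69 and 3.25 CPM in lard livers, against 7.26, 14.8, 9.99 and 14.1 CPM in soy livers. Lard liver 1101 touched soy liver 1065, and the fold change was -1.10 ± 0.29 (-0.67 ± 0.32 without the pair), with 47.7% of its reads unique. Ahsa1, which activates HSP90, was at -0.36 ± 0.14, or -0.07 ± 0.10 without the pair.

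**Figure D3:**
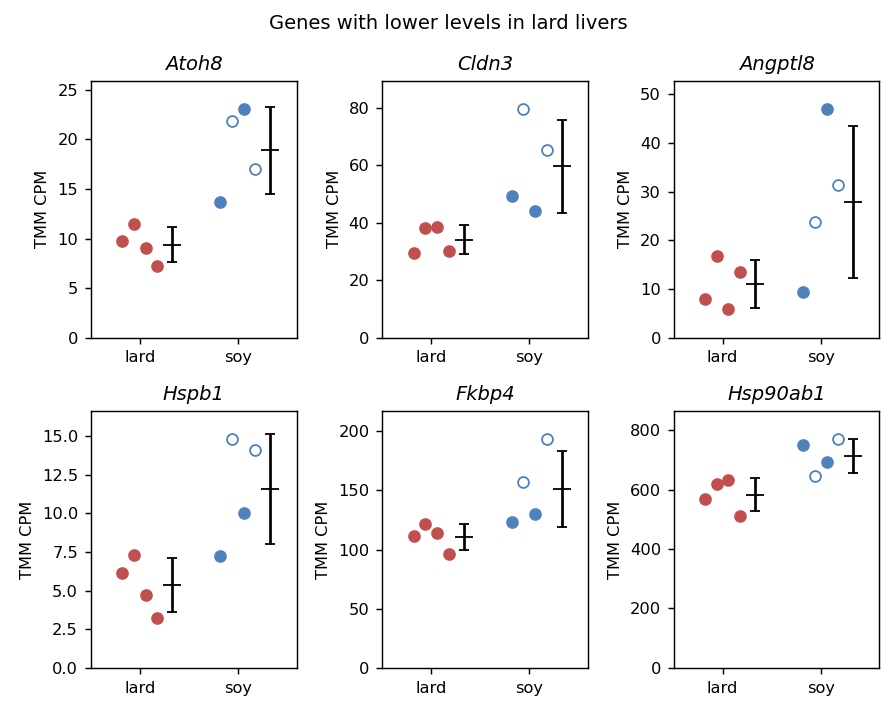
TMM-scaled CPM of 6 genes with a negative fold change in each lard and soy liver (points; open points are soy livers 1073 and 1159), with the mean and SD of 4 livers beside them. Lard and soy livers are separate for Atoh8, Cldn3, Fkbp4 and Hsp90ab1, and overlap for Angptl8 and Hspb1.

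Ribosomal protein, oxidative phosphorylation and proteasome genes were lower in lard livers as groups, and this rested on soy livers 1073 and 1159. All 77 cytosolic ribosomal protein genes tested had a negative fold change, with a median of -0.69. Of these, 74 were at an unadjusted p under 0.05 (11.2% lower over all genes tested). DESeq2 called 39 (0.946%), and the livers did not overlap for 1 (2.17%). The summed level of these genes was 14710 to 16190 CPM in lard livers, and in soy livers 33340 and 32260 CPM in mice 1073 and 1159 against 15400 and 15140 CPM in mice 1065 and 1141. Without that pair the median was 0.005, with 41 positive, 36 negative and 0 at an unadjusted p under 0.05. The named member Rpl41 had 277, 271, 279 and 269.6 CPM in lard livers, against 288, 789.6, 292 and 735 CPM in soy livers. Its fold change of -0.94 ± 0.27 came to -0.09 ± 0.09 without the pair, and that of Rpl26, -0.79 ± 0.22, came to -0.15 ± 0.10. About 51.2% of Rpl41 reads and 52.2% of Rpl26 reads were unique, so their levels are uncertain.

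The 74 nuclear-encoded oxidative phosphorylation genes had a median of -0.58, with 56 lower at an unadjusted p under 0.05 (11.2% over all genes tested), and 0.06 without soy livers 1073 and 1159. For the complex I subunit Ndufa1 lard livers had 58.8, 56.2, 57.0 and 54.2 CPM, against 61.4, 108, 60.2 and 121 CPM in soy livers. Its fold change of -0.63 ± 0.19 came to -0.11 ± 0.08 without the pair, although the groups do not overlap. The 31 proteasome genes had a median of -0.46, with 22 lower at an unadjusted p under 0.05 (11.2% over all genes tested), and 0.04 without the pair. The 13 genes encoded in mitochondria themselves had a median of 0.27, or 0.07 without the pair. In the soy livers that stood apart, the deviation of each gene from its mean over the livers also followed exon length (Spearman correlations of -0.646 and -0.627 across genes, which are not independent, against 0.06 to 0.338 in the other 13 livers). The share of these differences that goes with exon length or with reads outside exons was not tested gene by gene. With the percentage of reads outside exons as a covariate the ribosomal median was -0.06, the oxidative phosphorylation median -0.006 and the cholesterol synthesis median 0.45.

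**Figure D4:**
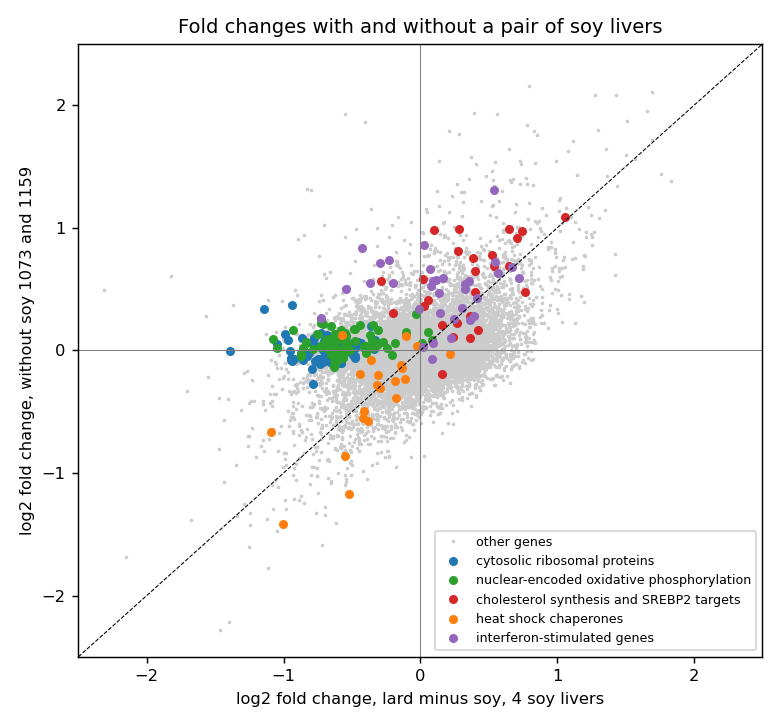
Log2 fold change of each gene, lard minus soy, with all 4 soy livers (horizontal axis) and without soy livers 1073 and 1159 (vertical axis); the 18 genes outside ±2.5 or absent from one fit are not drawn, and the dashed line marks equal values. Ribosomal and oxidative phosphorylation genes spread left of 0 at a height near 0, cholesterol synthesis genes lie mostly in the upper right and heat shock chaperones mostly in the lower left.

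Apolipoprotein and lipoprotein genes had a median of -0.34 over 20 members, with 0 higher and 9 lower at an unadjusted p under 0.05, and -0.03 without soy livers 1073 and 1159. Over all genes tested 6.08% were higher and 11.2% lower at that p. Apom, which carries sphingosine 1-phosphate in lipoproteins, had 168, 177, 177 and 168 CPM in lard livers, against 183, 392, 191 and 358 CPM in soy livers. The pair of soy livers lay far above the others, and the fold change of -0.70 ± 0.20 came to -0.12 ± 0.07 without it. Apoc4 likewise went with the pair, at -0.80 ± 0.24 and -0.07 ± 0.10, with 67.5% of its reads unique. Angptl8, an insulin-responsive inhibitor of lipoprotein lipase activity, had 7.91, 16.8, 5.96 and 13.5 CPM in lard livers, against 9.39, 23.7, 47.1 and 31.3 CPM in soy livers. Soy liver 1065 lay within the lard range, and the fold change was -1.34 ± 0.41 and -1.35 ± 0.51 without the pair, with 44% of reads unique.

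Interferon-stimulated genes differed in the other direction. Of 33 members tested 25 had a positive fold change, with a median of 0.14, 6 higher and 1 lower at an unadjusted p under 0.05. Without soy livers 1073 and 1159 the median was 0.54, with 32 of 33 positive, 10 higher and 0 lower. Over all genes tested 6.08% were higher and 11.2% lower at that p, and 3.1% and 3.16% without those livers. The guanylate-binding protein gene Gbp7 had 29.0, 17.6, 24.7 and 29.4 CPM in lard livers, against 20.0, 17.7, 13.1 and 10.1 CPM in soy livers. Lard liver 1101 fell among the soy livers, and the fold change was 0.72 ± 0.21 (0.59 ± 0.23 without the pair). The antiviral genes Oas2 and Oasl2 were at 0.39 ± 0.16 (0.28 ± 0.18 without the pair) and 0.54 ± 0.22 (0.72 ± 0.23), with overlap. The summed level of the list was 642.9 to 955 CPM in lard livers and 564 to 1278 CPM in soy livers, highest in soy liver 1073. In bulk tissue, fewer cells of a type and less RNA per cell cannot be told apart. The 12 Kupffer cell and macrophage markers summed to 371 to 609 CPM in lard livers and 368 to 956 CPM in soy livers, and their part in the interferon values was not tested.

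Single detoxification and sex-biased genes are given here with their lists. The 34 phase I enzymes had a median of 0.01 (0.05 without soy livers 1073 and 1159), with 2 higher and 3 lower at an unadjusted p under 0.05. Both counts are below the shares over all genes tested, 6.08% higher and 11.2% lower. Ephx1, the microsomal epoxide hydrolase, had 165, 189, 183 and 183 CPM in lard livers, against 224, 367, 230.0 and 301 CPM in soy livers. No lard liver reached a soy liver, and the fold change was -0.64 ± 0.16, or -0.33 ± 0.13 without the pair (DESeq2 adjusted p = 0.0268 with all soy livers). The monooxygenase Fmo5 was at 0.56 ± 0.21 (0.52 ± 0.26). The 28 male-biased genes had a median of 0.31 (0.26 without the pair), with 20 positive. At an unadjusted p under 0.05 there were 0 higher and 1 lower, also below those shares. The 1 lower gene was Gstp1, a glutathione transferase with 42.7% unique reads, at -1.06 ± 0.44 and -0.09 ± 0.40 without the pair. The male-biased steroid enzyme gene Hsd3b5 had 10.3, 0.70, 49.3 and 4.61 CPM in lard livers, against 2.13, 4.48, 0.746 and 2.21 CPM in soy livers. Lard livers 1100 and 1102 lay far above the rest and lard liver 1101 below every soy liver, at a fold change of 2.74 ± 1.30 (3.40 ± 1.96 without the pair). Cyp4a12a, a male-biased fatty acid hydroxylase, was highest of the lard and soy livers in lard livers 1102 and 1100, at 34.6 and 14.5 CPM. It was lowest in soy liver 1141, at 2.98 CPM, followed by lard liver 1101 at 3.29 CPM. Its fold change was 1.36 ± 0.67 (1.65 ± 0.95), with 66.7% unique reads.

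The 23 female-biased genes had a median of -0.10, or -0.32 without soy livers 1073 and 1159. Of these, Cyp2c69 had 13.6, 9.94, 9.94 and 14.6 CPM in lard livers, against 24.1, 20.9, 36.2 and 32.7 CPM in soy livers. The groups did not overlap, at a fold change of -1.24 ± 0.50 (-1.33 ± 0.58 without the pair) and 67.6% unique reads. Cyp2c40, a close relative, was at -0.85 ± 0.34 (-0.84 ± 0.38) with 58.0% unique reads, and the corepressor Trim24 at -0.38 ± 0.19 (-0.44 ± 0.21). Igf1, the growth hormone target, was at 0.37 ± 0.14 (0.29 ± 0.15 without the pair). The 31 glutathione and NRF2 target genes had a median of -0.20, with 8 lower at an unadjusted p under 0.05 (11.2% over all genes tested), and 0.04 without the pair.

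Among 19 clock genes the median was 0.09 (-0.09 without soy livers 1073 and 1159), with 1 higher and 2 lower at an unadjusted p under 0.05. Both counts are below the shares over all genes tested, 6.08% higher and 11.2% lower. The nuclear receptor Nr1d1, a repressor of the clock, had 25.4, 34.4, 38.0 and 32.9 CPM in lard livers, against 43.9, 41.5, 111 and 40.2 CPM in soy livers. The groups did not overlap, with soy liver 1141 far above the rest, and the fold change was -0.85 ± 0.40, or -1.24 ± 0.45 without the pair. Dbp, a clock output factor, was at -0.74 ± 0.25 (-0.37 ± 0.21 without the pair) and Per2 at 0.47 ± 0.20 (0.17 ± 0.19). About 66.6% of Dbp reads were unique. The exons of Dbp overlap those of Sphk2 on the opposite strand, and those of Nr1d1 overlap Thra. No source used here gives the time of day of tissue collection. Col3a1, the collagen of smallest p, was at 0.63 ± 0.17 (0.53 ± 0.16), in a list of 27 matrix genes with a median of 0.21, or -0.006 without the pair.

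A neighbouring pair of cytochrome P450 genes was high in 1 lard mouse. Cyp1a2, a xenobiotic-metabolising cytochrome P450 of hepatocytes, had 409, 173, 181 and 5516 CPM in lard livers, against 217, 183, 109 and 121 CPM in soy livers. Its fold change was 3.31 ± 0.90 (3.26 ± 1.28 without soy livers 1073 and 1159) with lard liver 1130 and 0.69 without it. Cyp1a1 (ENSMUSG00000032315, chromosome 9, 57687928 to 57703824), its neighbour and the classical target of the aryl hydrocarbon receptor, was named after its values were seen. It had 28, 21, 9 and 7346 reads in lard livers, against 15, 14, 9 and 11 reads in soy livers, or 663 CPM in lard liver 1130 and at most 1.47 CPM in each of the other 14 livers of the 4 diets. Of other known targets of that receptor, lard liver 1130 held 0.632 CPM of Cyp1b1 and 12.1 CPM of Tiparp, within the ranges of the other livers, and 19.0 CPM of Nqo1, above the other 14, of which the highest was soy liver 1073 at 17.7 CPM.

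**Figure D5:**
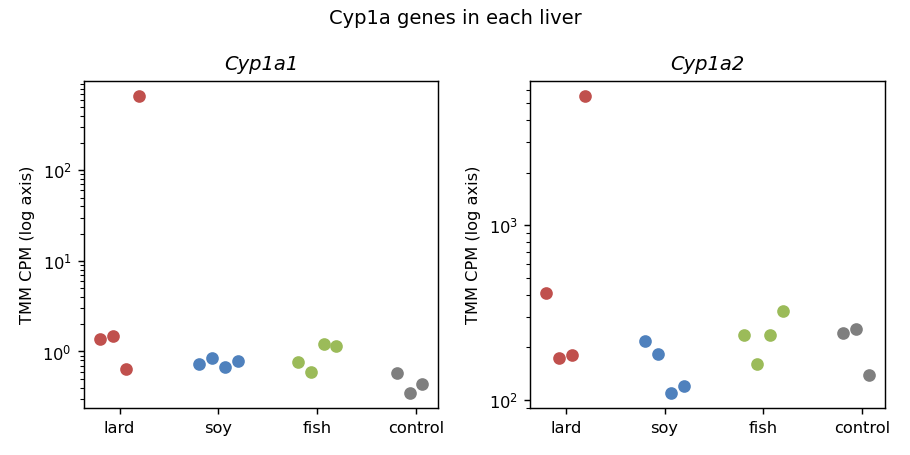
TMM-scaled CPM of Cyp1a1 and Cyp1a2 in each liver of the 4 diets (log axis, 1 point per liver). Lard liver 1130 lies at 663 CPM for Cyp1a1 and 5516 CPM for Cyp1a2, and no other liver exceeds 1.47 and 409 CPM.

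Markers of other cell types were set beside these results, and their part in them was not tested. All 8 cholangiocyte markers tested had a negative fold change, with a median of -0.67 (-0.45 without soy livers 1073 and 1159, 7 of 8 negative), and 2 were at an unadjusted p under 0.05 (11.2% lower over all genes tested). Their summed level was 36.0 to 59.6 CPM in lard livers and 42.2 to 96.6 CPM in soy livers, so the groups overlapped. Cldn3 above is also a gene of epithelial junctions. Stellate cell markers summed to 476 to 612 CPM in lard livers and 551 to 627 CPM in soy livers, and endothelial markers to 429 to 517 CPM and 395 to 524 CPM. The Kupffer cell and macrophage markers had a median fold change of -0.29 with 11 of 12 negative (0.07 and 5 of 12 without soy livers 1073 and 1159). The 5 erythroid genes tested had a median of 0.30, all positive (1.29 without the pair), which turned to -0.87 without lard liver 1130. Erythroid genes summed to 386 to 2350 CPM in lard livers and 382 to 1070 CPM in soy livers. The 2 neutrophil markers tested were at a median of -0.67 (-0.17 without the pair), and all 8 listed summed to 0 to 2.35 CPM in lard livers and 0.82 to 2.36 CPM in soy livers.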

How the data were processed

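Liver RNA was extracted with Trizol and made into TruSeq libraries, per the labels' protocols. The authors deposited, per the file headers, read counts per gene and library (on exons, on exons from unique reads, and on whole genes), log10 RPKM and its difference between group means (lard minus soy), and an unadjusted p-value per gene from a t-test. The submitters' processing notes name FastQC and GRCm38; no source used here gives the aligner, the counter or the strand setting. Of 38124 genes 36345 matched a GENCODE M21 symbol (GRCm38), which also gave the coordinates, and 1779 did not.

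Total exon reads were tested in R 4.3.3 with edgeR 4.0.16: filterByExpr at a minimum count of 10, TMM, 15 livers in 1 quasi-likelihood fit with diet as the term, adjusted p under 0.05 (Benjamini-Hochberg); 12788 genes were kept. The common biological coefficient of variation was 0.212. DESeq2 1.42.0 and limma 3.58.1 were alternatives. SE is the fold change divided by the square root of its F statistic. Depth was 11315231 to 21278699 exon reads in the 8 libraries. The fit was also run on simulated counts with the same spread for every gene and no livers that stood apart. There it recovered 81% of 100 genes changed 2-fold and 100% of 100 changed 4-fold, with 10 false calls. Those settings differ from these data, so the recovery does not carry over to them. Named genes were the 10 higher and 10 lower of smallest p among those whose diets did not overlap, at a mean of 5 CPM or more, or were the 3 members of smallest p of a list, of which a part is named; others are marked, and a list member that this rule names is not reported here. The members, gene lists and rules were chosen with earlier results of these data known.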

Additional observations from a re-analysis of the deposited data

Results flagged for a closer look

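In 11 cases, of 154 groups looked at, 1 liver of a group of 4 lay far from the other 3, by a gap past Dixon's 95% critical value. Chance alone flags about 1 in 20 groups of genes chosen without regard to their values. Of the genes flagged, Cyp1a1, Sult1e1, Fads3, Hmgcs1 and Fmr1nb were named outside the rule, with their values seen. The others were chosen by small p in these same livers, so that rate applies to none of the genes flagged. Lard liver 1130 held 5516 CPM of Cyp1a2, with 173 to 409 CPM in the other lard livers, and 663 CPM of Cyp1a1, with 0.639 to 1.47 CPM in the others. The same liver held 7.13 CPM of the estrogen sulfotransferase gene Sult1e1, with 0.639 to 0.885 CPM in the other lard livers, and soy liver 1141 held 1.34 CPM, with 0.357 to 0.436 CPM in the other soy livers. In lard liver 1130 the desaturase family gene Fads3 stood at 107 CPM, with 59.6 to 65.5 CPM in the others, and the lipid droplet gene Cidec at 8.40 CPM, with 5.89 to 6.30 CPM in the others.

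Of the clock genes, Per2 stood at 95.5 CPM in lard liver 1101, with 77.3 to 79.3 CPM in the other lard livers. Dbp stood at 204 CPM in soy liver 1073, with 88.3 to 99.4 CPM in the other soy livers, and Nr1d1 at 111 CPM in soy liver 1141, with 40.2 to 43.9 CPM. Hmgcs1 of cholesterol synthesis stood at 258 CPM in soy liver 1073, with 134 to 145 CPM in the others. Fmr1nb, named after its values were seen, stood at 13.3 CPM in soy liver 1159, with 0 to 0.895 CPM in the other soy livers.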

How the results depend on the processing

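edgeR called 0 genes under each of 8 other settings, and limma-voom 0 with and without library quality weights. DESeq2's Wald test called 151 genes, and 2 without soy livers 1073 and 1159, an alternative chosen after seeing the data. Leaving out 1 of the 15 livers in turn gave 0 to 780 genes, above 0 only without soy liver 1065 (780) or 1141 (524). Among fold changes of the 76 named genes, 814 of 832 values under other settings kept their direction and their side of the threshold. Of the rest, 15 passed the threshold and 3 reversed. No gene passed in the main fit, and 10 of the 11 planned settings called 0 genes, so the side was fixed under those 10. These genes were chosen with these same data known, so the count is no test of their direction. With the percentage of reads outside exons as a covariate Scd1 turned to -0.010 and Fmr1nb to 0.55. Without soy livers 1073 and 1159 Fmr1nb turned to 0.49, and with 1 liver left out in turn it ranged over -3.31 to 1.07, reversed only without soy liver 1159; the cause was not tested. Medians of 44 lists moved by more than the spread between livers in 20 of 481 cases, single livers left out aside, 10 of them without soy livers 1073 and 1159 and 10 with that covariate. The ribosomal, oxidative phosphorylation, proteasome, apolipoprotein and clock lists moved under both, the female-biased list without the pair, and under the covariate the bile acid list (0.09), the interferon list (0.59) and the desaturase and elongase list (0.30, against 0.42). With single livers left out, 4 more moved: sterol export to 0.17 without soy liver 1065, and without a lard liver bile acid to 0.04 (1101), desaturases and elongases to 0.52 (1100) and erythroid markers to -0.87 (1130). Library set numbers did not pair the livers: same-set lard and soy livers correlated at -0.154 to -0.0144, and with the set number as a replicate block 0 genes passed. Genes under the minimum count were not tested in the main fit. With no filter on low counts 17889 genes were tested and 0 were called, and differences in such genes may go undetected at this depth.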

Other observations

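Genes at an extreme in 1 liver were counted as those with at least 5 CPM and at least 4-fold the highest of the other 14 livers. Lard liver 1130 had 3 such genes, Cyp1a1, Cyp1a2 and Sult1e1, and soy liver 1159 had 1, Fmr1nb. The other 6 lard and soy livers had 0. Cyp1a1 in lard liver 1130 was 451-fold the highest of the other livers and Cyp1a2 13.5-fold. Of other known targets of the aryl hydrocarbon receptor, Nqo1 stood at 19.0 CPM there, the highest of the 15 livers. It held 7.13 to 13.3 CPM in the other lard livers and 8.05 to 17.7 CPM in soy livers. Cyp1b1, at 0.632 CPM, and Tiparp, at 12.1 CPM, lay within the ranges of the other livers. Whether the Cyp1a1 and Cyp1a2 levels of mouse 1130 go with its diet cannot be told from 1 animal.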
